A study of Mus musculus with 21 samples.

Results

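The 10 genes of glycolysis examined here were the hexokinases Hk1 and Hk2, the phosphofructokinases Pfkl, Pfkm and Pfkp, the aldolase Aldoa, the phosphoglycerate kinase Pgk1, the enolase Eno1, the lactate dehydrogenase Ldha, and Gm5506, a copy of Eno1 elsewhere in the genome. They are 10 of the 48594 gene names in the 3 tables of the study, and each has 1 row in every table. They were picked by name, but the names were chosen on measured values, because the knockout and wild-type levels of Gm5506 and of several of the enzymes were already known to differ. Those differences are therefore given as a description and support nothing by themselves.

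Glycolysis converts glucose to pyruvate and then, through lactate dehydrogenase, to lactate. Most of its steps have several isozymes with their own tissue pattern, and brain, which lives mainly on glucose, changes its isozymes as it matures. Hexokinase and phosphofructokinase set much of the rate, and enolase makes phosphoenolpyruvate, the substrate of pyruvate kinase.

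RNA-Seq was carried out on tissues of 3 knockout mouse strains, each lacking 1 long intergenic noncoding RNA (lincRNA) gene. The groups were wild-type and knockout whole brain of the Peril strain at E18.5 (E for embryonic day), wild-type and knockout lung of the Fendrr strain at E14.5, and wild-type and knockout linc-Brn1b telencephalon at E13.5, telencephalon at E15.5 and whole brain at postnatal day 7 (P7). In the sample labels Peril samples carry the name of the gene Sox2 and Fendrr samples that of Foxf1a. Each group had 2 libraries, except that 3 are labelled linc-Brn1b knockout at E15.5. In each strain a lacZ reporter cassette had taken the place of the lincRNA gene in hybrid embryonic stem cells, in part of C57BL/6N origin, and the mice had been crossed back to C57BL/6J once, so wild-type and knockout mice can differ in other stretches of the parental genomes.

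The tables give 1 value per group and none per library, in FPKM, a fragment count scaled to transcript length and library size. Levels below are these group values from the authors, which can be compared between genes because they are per length. The spread between animals and the depth are unknown, and no difference below has a replicate check or a test. A difference means log2(FPKM + 1) of the knockout minus that of the wild type, and a gene was counted as higher or lower when this reached 0.5 in either direction and either group had 1 FPKM or more. The tables were normalized separately, so levels of different strains are set side by side only as a guide.

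The rows at the deleted genes were checked first. The linc-Brn1b row stood at 1.60, 2.50 and 0.799 FPKM in wild type at E13.5, E15.5 and P7 and was listed at 0 in every knockout, and the row at the Fendrr position, linc-Foxf1a-1, was at 0.352 in wild type and 0.0100 in knockout. The row that overlaps Peril, linc-Atp11b-4, was at 0.0109 FPKM in wild type and 4.65 in the group labelled knockout. That is not the direction a deletion of the full row would give. How much of this row lies in the deleted stretch was not checked, so it cannot decide whether the label holds. Peril directions below follow the labels as deposited. All 7 telencephalon markers reached 1 FPKM in each brain comparison and none did in lung, where all 7 lung markers did. The 4 listed genes of the Y chromosome (Ddx3y, Eif2s3y, Kdm5d and Uty) were past the threshold in all 5 comparisons, higher in the Peril group labelled knockout and in the E15.5 and P7 linc-Brn1b knockouts, and lower in the lung and E13.5 knockouts. Sex and genotype thus cannot be told apart. Pgk1 is a gene of the X chromosome, and the part of sex in its values was not tested.

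Some rows do not lie on the gene they are named after. The annotated Aldoa gene runs from 133938748 to 133944265 on chromosome 7 of mm9, where no row of any table lies, whereas the row named Aldoa covers 56666122 to 56667696 on chromosome 12, the place of the annotated retrogene Aldoart2. That row held at most 0.0722 FPKM, and no level of aldolase A can be read from it. The row named Gapdh, the gene of the next oxidising step, lay on chromosome 1 instead of chromosome 6 in the same way and held at most 0.902 FPKM. Of the 46 pathway genes examined (the 10 members, 18 other glycolysis enzymes and 18 transporters, regulators and enzymes of pyruvate use), these were the only ones whose row did not overlap the annotated gene of that name. Some rows also run past the named gene onto a neighbour. Among these, the Pfkm row covers part of Senp1, the Pfkp row part of Pitrm1 and the Slc16a3 row part of Csnk1d. The part of such neighbours in the levels was not tested.

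The member levels covered a wide range. Ldha, which makes lactate from pyruvate, was the most abundant member in 8 of the 10 groups, at 156 to 590.4 FPKM, and Pgk1, which makes the first ATP of the pathway, lay at 156 to 299 FPKM. The hexokinases and phosphofructokinases, which catalyse the regulated early steps, lay between 0.780 FPKM (Hk2 in wild-type P7 brain) and 85.7 FPKM (Pfkp in knockout P7 brain). Eno1, the enolase of most tissues, stayed between 2.09 and 5.33 FPKM in all 10 groups, although the enzymes next to it in the pathway were far more abundant, with Pgam1 at 100.4 to 190.5 FPKM and the pyruvate kinase row Pkm2 at 318 to 813 FPKM.

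**Figure D1:**
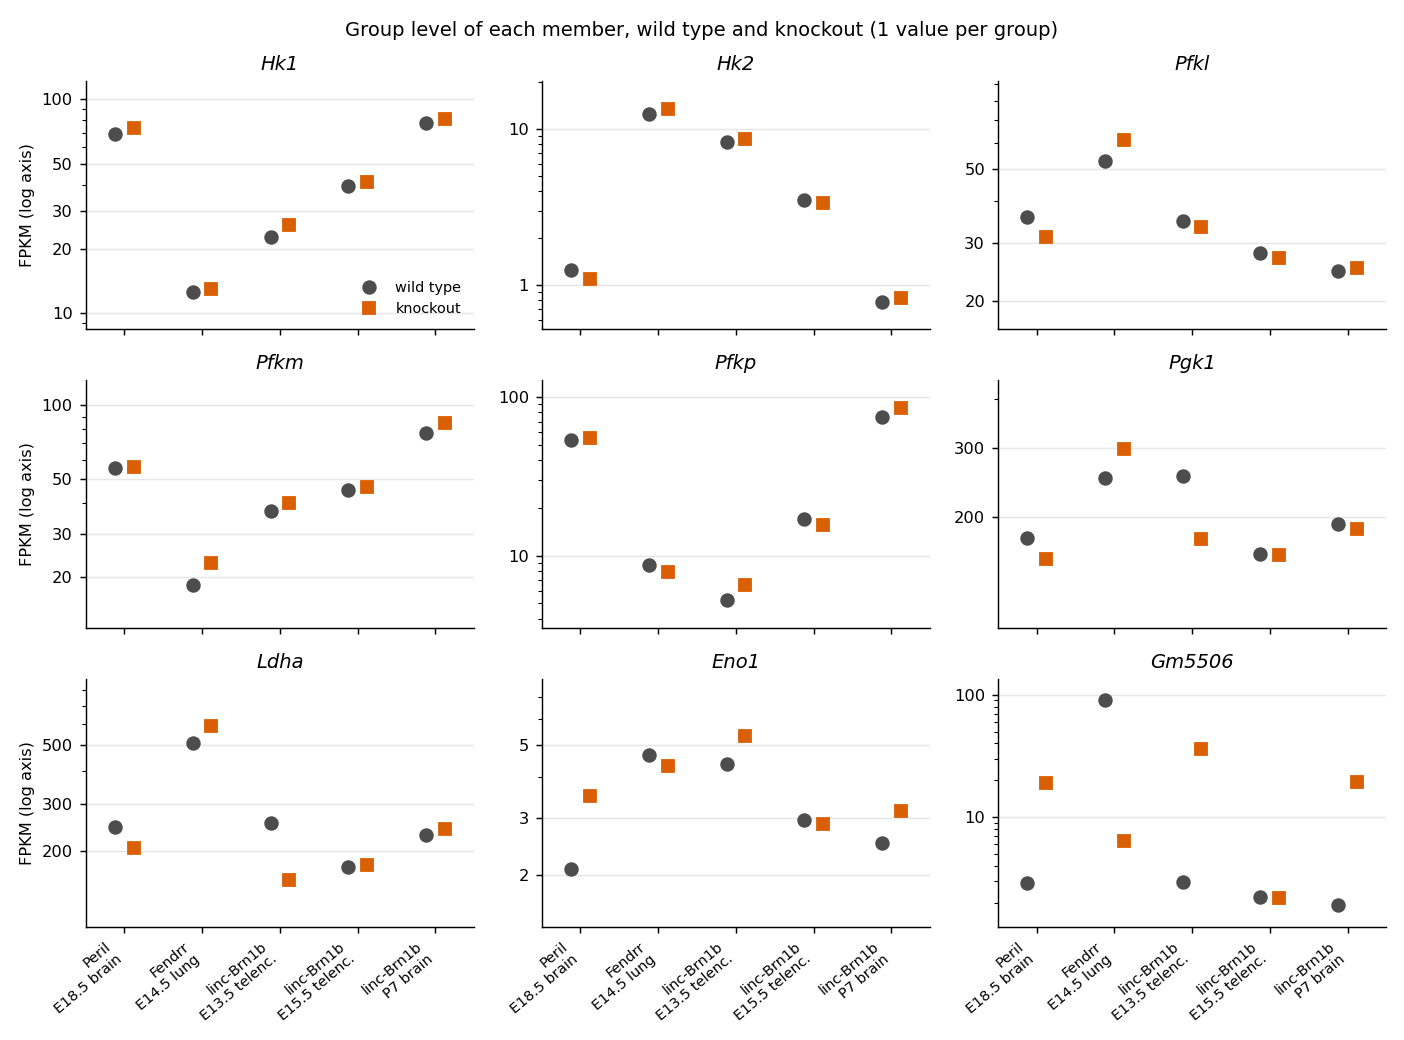
Level of 9 members in FPKM on a log axis, 1 panel per gene with its own range; circles are wild type and squares knockout, 1 value per group and no error. Wild type and knockout lie close together for most members, whereas Gm5506 spans 1.91 to 90.4 FPKM and Pgk1 and Ldha separate at E13.5.

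The early enzymes set the tissues apart more than the genotypes. Hk1 was lowest in lung, at 12.6 FPKM in wild type and 12.9 in knockout, and highest in P7 brain, at 78.0 and 81.3 FPKM, with the Peril brain next at 69.0 and 73.2 FPKM. Hk2 ran the other way, at 12.50 and 13.55 FPKM in lung, 1.26 and 1.10 FPKM in the Peril brain, and below 1 FPKM in both P7 groups. Among the phosphofructokinases, Pfkl was highest in lung (53.0 and 61.2 FPKM) and lowest at P7 (24.7 and 25.3 FPKM), whereas Pfkm was lowest in lung (18.47 and 22.7 FPKM) and highest at P7 (77.2 and 84.9 FPKM). Pfkp had the widest range of the 3, from 5.24 FPKM in wild-type E13.5 telencephalon to 85.7 FPKM in knockout P7 brain. When the 10 groups were put in order, wild type and knockout of the same tissue and age were neighbours for Hk1, Hk2, Pfkm and Pfkp, and for Pfkl except in the Peril brain, and without a spread no neighbours in the order can be called different.

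Gm5506 was the member whose level differed most between genotypes. In the Peril brain it was at 2.90 FPKM in wild type and 19.2 in the group labelled knockout, a difference of 2.37. In the linc-Brn1b strain it went from 2.95 to 36.3 FPKM at E13.5, a difference of 3.24, and from 1.91 to 19.4 FPKM at P7, a difference of 2.81. At E15.5 it was at 2.24 and 2.17 FPKM, so the same knockout showed no difference at the age in between. The Fendrr lung ran the other way, with 90.4 FPKM in wild type and 6.45 in knockout, a difference of -3.62. Ordered by level, 5 groups lay at 1.91 to 2.95 FPKM, knockout lung at 6.45, and the remaining 4 groups at 19.2 to 90.4 (the Peril group labelled knockout, the P7 and E13.5 knockouts, and wild-type lung). The 4 Y-linked genes and Gm5506 were both higher in the Peril group labelled knockout and in the P7 knockout and both lower in the lung knockout. At E13.5 Gm5506 was higher and the Y-linked genes lower in knockout, and at E15.5 the Y-linked genes were higher while Gm5506 differed by -0.03. The part of sex in these values was not tested. Whether the values of single animals overlap is not known.

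Eno1 itself moved little. It was at 2.09 and 3.49 FPKM in the Peril brain (difference 0.54, just past the threshold), 4.67 and 4.32 in lung (-0.09), 4.38 and 5.33 at E13.5 (0.23), 2.95 and 2.86 at E15.5 (-0.03), and 2.52 and 3.15 at P7 (0.24), wild type first. The sign of its difference was that of Gm5506 in each of the 5 comparisons, though at E15.5 both differences were only -0.03. Reads of the 2 genes are hard to assign, as described below, so the shared sign is a description only. The share of the summed Eno1 and Gm5506 level that was listed under Gm5506 was 40.3%, 43.1%, 43.1% and 43.1% in the 4 linc-Brn1b groups with low Gm5506 (wild type at E13.5, both genotypes at E15.5, wild type at P7), and 87.2% and 86.0% in the E13.5 and P7 knockouts. In the Peril brain the share was 58.2% in wild type and 84.6% in the group labelled knockout, and in lung 95.1% in wild type and 59.9% in knockout. The sum of both rows was still only 2.31% of the Pgk1 level in wild-type P7 brain and reached 37.9% of it in wild-type lung.

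**Figure D2:**
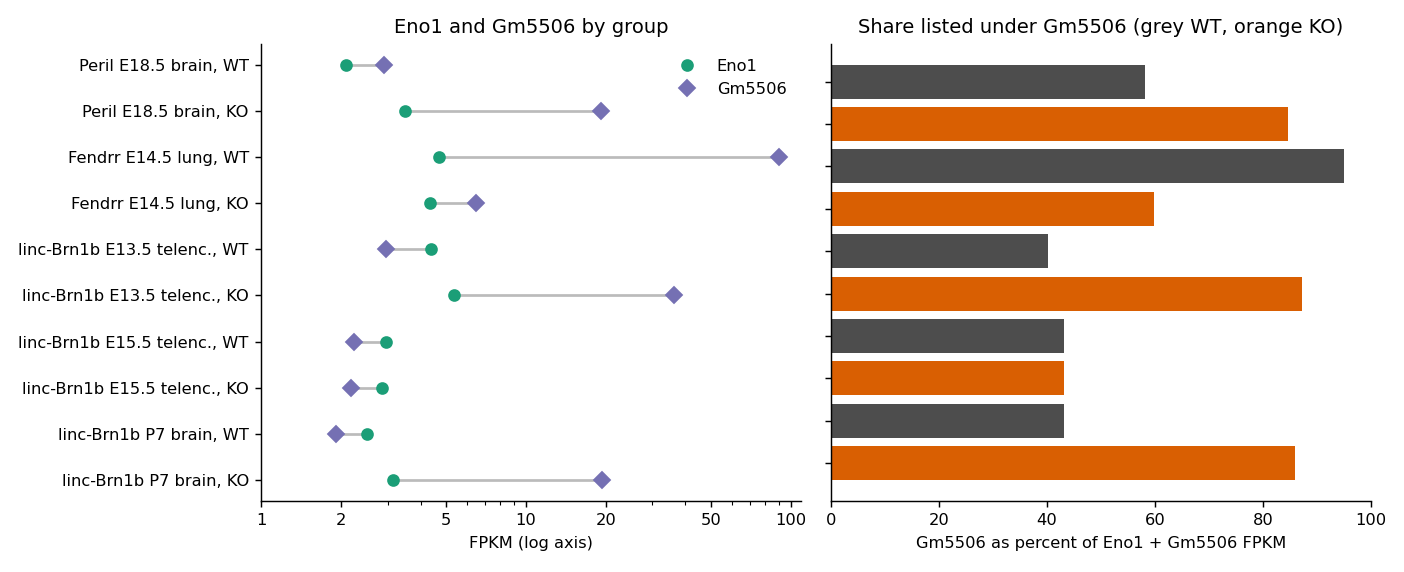
Left, FPKM of Eno1 (circles) and Gm5506 (diamonds) in each of the 10 groups on a log axis, joined by a line; right, Gm5506 as a percent of the sum of both, grey for wild type (WT) and orange for knockout (KO). Eno1 stays between 2.09 and 5.33 FPKM, whereas Gm5506 lies below Eno1 in 4 linc-Brn1b groups and at 90.4 FPKM in wild-type lung.

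Reads of these genes are hard to assign. On mm9, Eno1 has 12 exons in its main transcript and lies on chromosome 4 from 149610830 to 149622988, while Gm5506 is annotated as protein coding with 2 exons on chromosome 18 from 48204989 to 48208032. The table row named Gm5506 is much longer than that gene, from 48082495 to 48267634, and also takes in a partial enolase copy of 90.4% identity at 48228553 to 48229732, so its level is that of the whole row. An alignment of the 2027 bases of the Eno1 transcript to the genome found a stretch of 1736 bases at Gm5506 with 9 mismatches (99.5% identity), and the encoded proteins were identical at all 434 residues, compared with 82.9% identity between Eno1 and the neuronal Eno2 and 83.6% with the muscle Eno3. A further copy, the annotated pseudogene Gm13699 on chromosome 2 from 80677252 to 80678920, matched 1669 bases of Eno1 with 6 mismatches, and the table row over it stayed at or below 0.768 FPKM. Of the 1928 windows of 100 bases (about the read length) in the Eno1 transcript, 59.0% also occur without a mismatch in a genomic copy, as do 82.5% of those of Gm5506. The levels of Eno1 and Gm5506 are therefore uncertain, and how alignment and quantification divided reads between them was not tested.

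Near-identical copies were found for other enzymes too. Pgk1 has 2 genomic copies with 0 and 1 mismatches, outside a few gaps, over 1728 and 1751 bases, and 89.7% of its windows occur in a copy; its row was at 156 FPKM or more in every group. Pgam1, with 87.1% of its windows in a copy, was at 100.4 FPKM or more. Gapdh has 119 copies, the best of 99.8% identity, and 85.1% of its windows occur in a copy; the row of that name is the misplaced one, at 0.902 FPKM or less. Hk1, Hk2, Pfkl, Pfkm, Pfkp, Eno2 and Eno3 had no copy of at least 90% identity over 50% of the transcript or more. Within 1 Mb of Gm5506 on either side, 2 other rows reached 1 FPKM, Commd10 and Sema6a, and their differences ran from -0.35 to 0.05 in the 5 comparisons.

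Among the 13538 genes with 1 FPKM in at least 5 groups, those whose pattern over the 10 groups was most like that of Gm5506 were Syvn1, Pigb, Oxsm, Abca7 and linc-Mrpl20-AS, with Pearson's r of log2(FPKM + 1) of 0.89, 0.87, 0.85, 0.83 and 0.81. These genes varied far less, Syvn1 from 11.9 to 14.8 FPKM. The genes most like Eno1 were Eea1, Ythdf3, Plekha7, Zfp518a and Nufip2, with r of 0.92, 0.92, 0.92, 0.91 and 0.91. Eno1 and Gm5506 themselves had r of 0.65. The groups share tables and scaling, and the values describe these 10 groups only.

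Of the 5 knockout comparisons, linc-Brn1b at E13.5 held the most pathway genes past the threshold, and all but Gm5506 were lower in knockout. Pgk1 was at 255 FPKM in wild type and 176 in knockout (difference -0.53), and Ldha was at 255 and 156 FPKM (-0.70). Outside the members, 3 genes were lower: Tpi1, the triose phosphate isomerase, at 198 and 128 FPKM (-0.63), Slc2a1, the main glucose transporter of the blood-brain barrier, at 44.4 and 28.4 FPKM (-0.63), and Slc16a3, a lactate exporter, at 3.24 and 1.71 FPKM (-0.65). Just short of the threshold were the pyruvate dehydrogenase subunit Pdhb at 69.5 and 49.6 FPKM (-0.48) and the pyruvate kinase row Pkm2 at 813 and 591 FPKM (-0.46). In total 2 members were lower and 1, Gm5506, was higher of the 9 that passed the filter, while Hk1, Hk2, Pfkm and Pfkp had differences of 0.06 to 0.27 and Pfkl one of -0.05. Over the 36 pathway genes that passed, 5 were lower and 1 higher, with a median difference of 0.07, against 0.06 over all 13822 genes.

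Abundant genes were lower as a class in that comparison. Of all genes that passed, 7.21% were lower and 2.85% higher in the E13.5 knockout, but of the 728 genes at 100 FPKM or more in either group 32.4% were lower and 2.20% higher, with a median difference of -0.19. Pgk1, Ldha, Tpi1 and Pkm2 belong to these abundant genes. Relative to the median of the abundant genes, Pgk1 differed by -0.34, Ldha by -0.51 and Pfkfb2, higher in knockout, by 0.65. Endothelial markers moved too: 3 of 6 were lower (Cdh5, Tie1 and Cldn5), none was at 0, and the summed level was 62.0 FPKM in wild type and 41.7 in knockout. Of the 5 erythroid markers with a row, 3 reached 1 FPKM and only Hbb-b1, a globin gene, was lower, at 106 and 34.8 FPKM, while Alas2 was at 5.64 and 6.41 FPKM and Slc4a1 at 1.71 and 1.61 FPKM. The summed erythroid level was 114 and 43.3 FPKM and the median difference -0.06. The part of vessels, blood and sex in the lower levels was not tested, and in bulk tissue fewer cells of a type cannot be told apart from less RNA per cell.

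**Figure D3:**
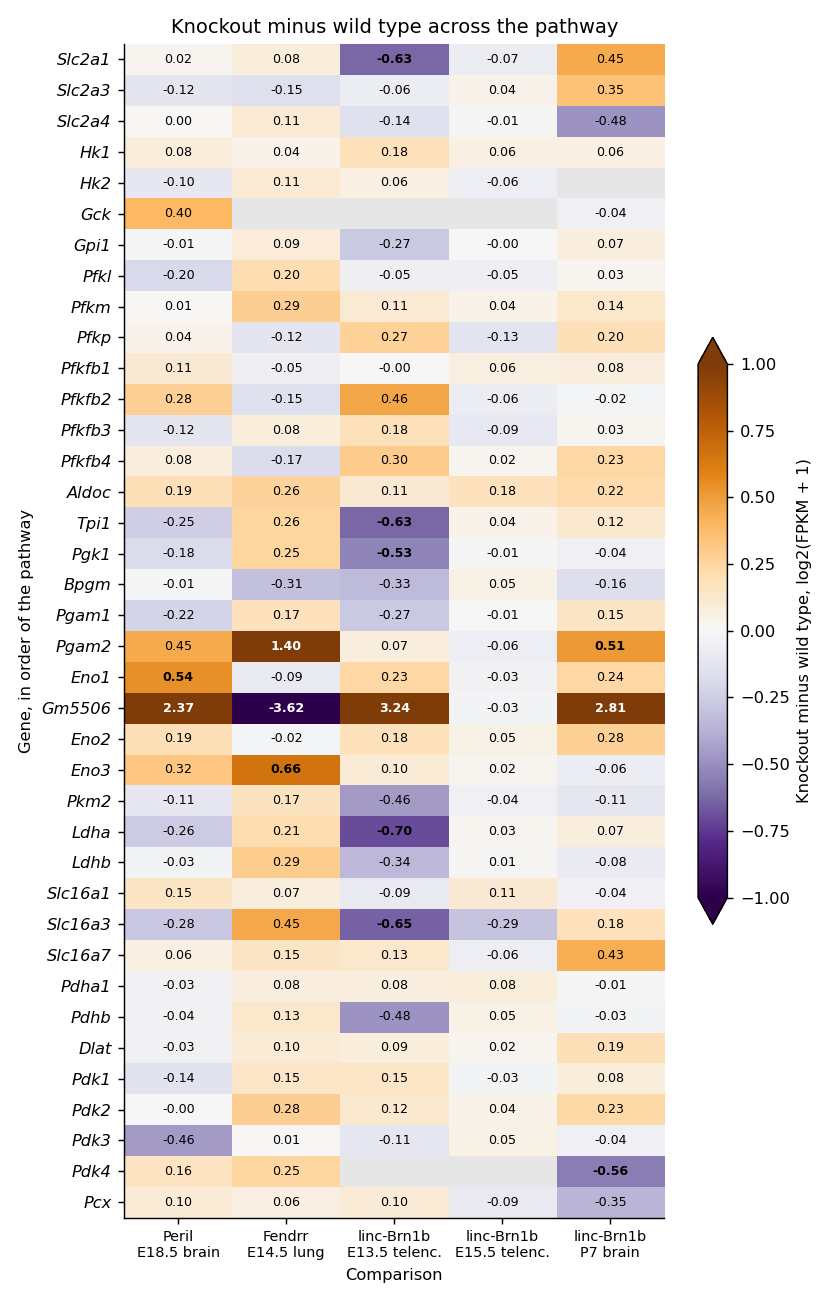
Knockout minus wild type in log2(FPKM + 1) for 38 genes in the order of the pathway (rows) in the 5 comparisons (columns); the colour scale ends at -1 and 1, bold numbers reach 0.5, and grey cells did not reach 1 FPKM. Only the E13.5 column holds more than 1 lower gene past the threshold, and the Gm5506 row holds values of both signs.

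The other knockout comparisons held fewer pathway genes past the threshold. In the Peril brain, Gm5506 and Eno1 were the only 2 of 38 pathway genes past the threshold, both higher in the group labelled knockout, against 1.76% higher and 1.31% lower of all genes. Pgk1 was at 177 and 156 FPKM there and Ldha at 247 and 206 FPKM, differences of -0.18 and -0.26. Of the marker lists, Hbb-b1 (89.2 and 52.8 FPKM) and Ttr, a transcript of the choroid plexus (807 and 551 FPKM), were lower there, and their part in the pathway values was not tested. At E15.5 none of 36 pathway genes reached the threshold, in a comparison where only 0.300% of all genes were higher and 0.410% lower, and the largest absolute difference of a member was that of Pfkp, at 17.1 and 15.6 FPKM (-0.13). Choroid plexus markers were lower in that knockout, 3 of 5 with none at 0 in both groups, and their summed level was 239 FPKM in wild type and 2.14 in knockout, mostly from Ttr at 231 and 1.39 FPKM. Their part in the member values was not tested.

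In the Fendrr lung, 3 of 37 pathway genes were past the threshold, against 1.96% higher and 1.43% lower of all genes. Gm5506 was lower, while Pgam2, the muscle form of phosphoglycerate mutase, was at 6.89 and 19.9 FPKM (1.40) and Eno3, the muscle enolase, at 16.2 and 26.2 FPKM (0.66), both higher in knockout. All 10 cardiac muscle markers were higher in the knockout lung as well, none was at 0, and their summed level was 315 FPKM in wild type and 965 in knockout; Actc1, an actin of heart muscle, was at 77.2 and 215 FPKM. Of 8 skeletal muscle markers 4 were higher, including Ckm at 4.91 and 15.6 FPKM. Endothelial markers were lower without reaching the threshold, with a summed level of 319 and 255 FPKM. Of the 5 erythroid markers with a row, Hbb-b1 (1124 and 623 FPKM, -0.85) and Alas2 (45.2 and 20.5 FPKM, -1.11) were lower, and the summed level was 1175 and 649.9 FPKM. The part of these other cell types in the pathway values was not tested. Among the members Pgk1 was at 251 and 299 FPKM (0.25), Ldha at 509.8 and 590.4 FPKM (0.21) and Pfkm at 18.47 and 22.7 FPKM (0.29), all below the threshold.

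In the P7 brain, 3 of 37 pathway genes were past the threshold, against 3.42% higher and 3.52% lower of all genes. These were Gm5506, Pgam2 at 2.53 and 4.02 FPKM (0.51), and Pdk4, a kinase that inhibits pyruvate dehydrogenase, at 3.28 and 1.91 FPKM (-0.56). The other members that passed the filter differed by -0.04 (Pgk1) to 0.24 (Eno1). The neuronal enolase Eno2 was at 108 and 131 FPKM (0.28), and the glucose transporters Slc2a1 and Slc2a3 at 13.7 and 19.0 FPKM (0.45) and at 32.3 and 41.5 FPKM (0.35). The other listed glucose transporter, Slc2a4, went the opposite way, at 1.04 and 0.466 FPKM (-0.48). Glial markers were lower in this knockout, 6 of 8 past the threshold with none at 0 and a summed level of 836 FPKM in wild type and 546 in knockout, as were 2 of 7 cerebellum and hindbrain markers, whose summed level was 43.4 and 26.3 FPKM. Of 7 neural progenitor and cycling markers 4 were lower (Pax6, Mki67, Top2a and Ccnb1), with a median difference of -0.95 and a summed level of 81.4 and 51.5 FPKM, and 2 of 5 choroid plexus markers were lower, with 454 and 309.7 FPKM in all. Neuron maturation markers had a summed level of 1258 and 1591 FPKM and a median difference of 0.35, and 1 of the 7 that reached 1 FPKM, Camk2a, was past the threshold at 87.0 and 198 FPKM (1.18). Their part in the pathway values was not tested.

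The linc-Brn1b table allows the ages to be compared within each genotype. Between E13.5 and E15.5 in wild type, Hk1, the hexokinase of brain, went from 22.8 to 39.3 FPKM (0.76) and Hk2, the hexokinase typical of muscle and growing cells, from 8.22 to 3.54 FPKM (-1.02). Pfkp, the platelet-type phosphofructokinase that is also expressed in brain, went from 5.24 to 17.1 FPKM (1.54). Pgk1 and Ldha were lower at E15.5, at 161 and 175 FPKM (-0.66 and -0.54). In total 2 members were higher and 3 lower of 9, where 11.7% of all genes were higher and 10.7% lower. In the knockout Hk1, Hk2 and Pfkp differed in the same directions (0.64, -1.14 and 1.14), but Pgk1 and Ldha did not reach the threshold (-0.14 and 0.19), and Gm5506 and Eno1 were lower (-3.55 and -0.71), so again 2 members were higher and 3 lower, where 13.3% of all genes were higher and 11% lower. Genes at 100 FPKM or more had a median difference of 0.29 in this knockout step, and relative to it Hk1 differed by 0.35, under the threshold, and Pfkl by -0.60, past it.

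Between E15.5 telencephalon and P7 whole brain the same members went further, although age and tissue cannot be told apart in this step. In wild type Hk1 went from 39.3 to 78.0 FPKM (0.97), Hk2 from 3.54 to 0.780 FPKM (-1.35), Pfkm, the muscle-type phosphofructokinase, from 45.3 to 77.2 FPKM (0.75), and Pfkp from 17.1 to 74.7 FPKM (2.07). This makes 3 members higher and 1 lower of 9, where 27.4% of all genes were higher and 30.5% lower. The knockout showed these 4 differences in the same directions (0.97, -1.25, 0.85 and 2.39) and a higher Gm5506 (2.68), which makes 4 higher and 1 lower, where 28.2% of all genes were higher and 30.5% lower. Of the other glycolysis enzymes, 6 of 11 were higher and 1 lower at P7 in both genotypes, with Eno2 from 15.3 to 108 FPKM (2.73) and the brain aldolase Aldoc from 73.5 to 163 FPKM (1.14) in wild type, and Pkm2 lower, from 542 to 343 FPKM (-0.66). Both steps use the E15.5 group, so they are not independent of each other.

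The levels can also be read as the share of each isozyme in its family. In wild-type linc-Brn1b samples Hk1 made up 71.2%, 89.6% and 97.0% of the summed hexokinase level at E13.5, E15.5 and P7, and Hk2 25.7%, 8.08% and 0.970%. Pfkp went from 6.78% to 18.9% and 42.3% of phosphofructokinase while Pfkl, the liver-type form, went from 45.1% to 30.9% and 13.99%. These phosphofructokinase shares rest on the Pfkm and Pfkp rows, which run onto neighbouring genes. Eno2 was 35.2%, 63.4% and 93.3% of the enolase rows. The lung groups had another make-up: Hk1 and Hk2 were nearly equal at 47.4% and 47.1% in wild type, Pfkl made up 66.1%, and Ldha made up 86.6% of the lactate dehydrogenase level against 52.5% to 63.6% in wild-type brain tissues. With Gm5506 left out, Eno3 was 71.4% of the enolase level in wild-type lung, against 14.3% with it. All enolase shares, those of Eno2 included, rest on the Eno1 row or on both the Eno1 and Gm5506 rows. The levels of these rows are uncertain because of near-identical copies, so the enolase make-up cannot be read from the shares. The aldolase family is not given, because of the misplaced Aldoa row.

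**Figure D4:**
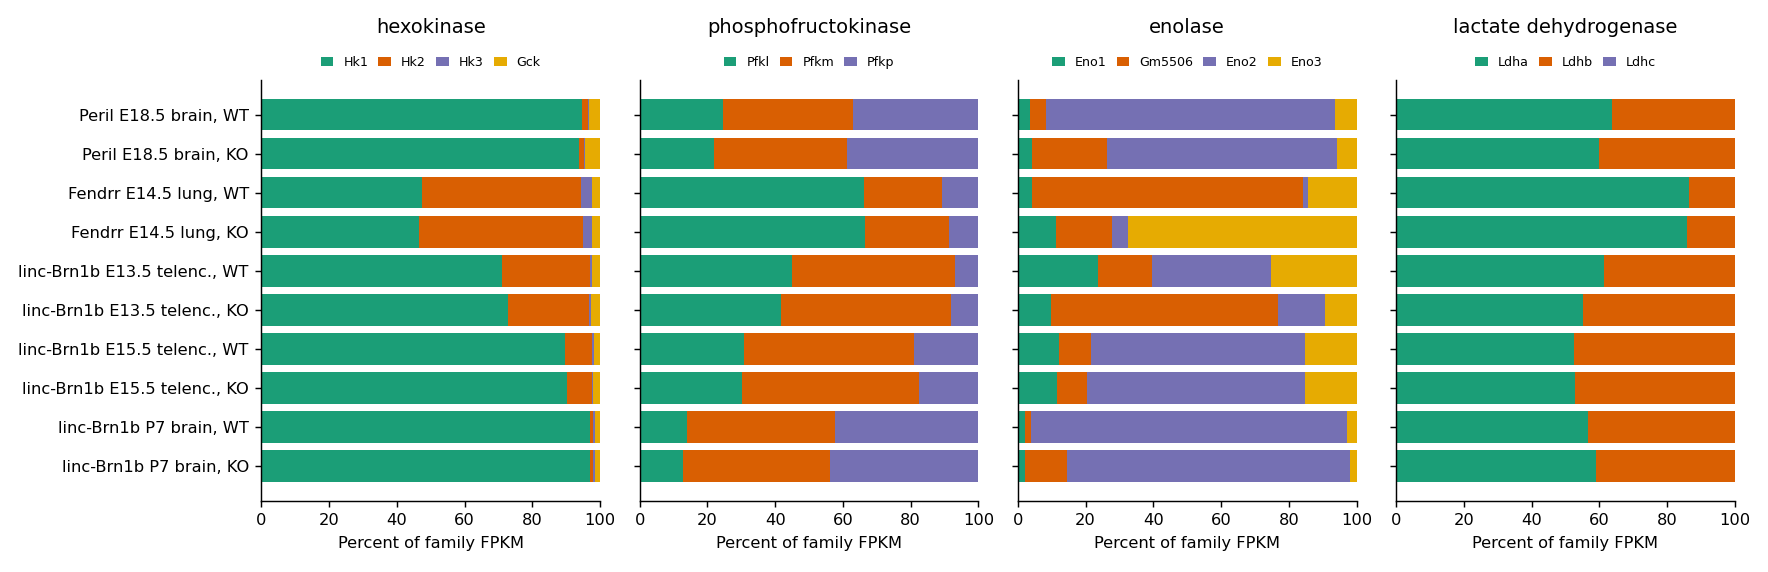
Percent of the summed FPKM of 4 enzyme families held by each isozyme in the 10 groups (WT, wild type; KO, knockout). Hk1, Pfkp and Eno2 take up more of the bar from E13.5 to P7, and Gm5506 fills 79.9% of the enolase bar in wild-type lung and 67.0% in the E13.5 knockout. The enolase bars rest on the Eno1 and Gm5506 levels, which are uncertain.

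The promoters of glycolysis genes are known to hold binding sites of the hypoxia-inducible factors, whose core letters are ACGTG or GCGTG. The RefSeq windows from 250 bases before to 50 after each gene start (GRCm38.p6, a later build than that of the tables) were searched for these letters on both strands, and 9 members had a window. Of 32851 windows over all genes, 19.6% hold ACGTG and 43.8% hold either version; of the 18 windows of the 9 members, 44.4% hold ACGTG and 83.3% either version. A match is a description and not a binding site. The upstream stretches of Pgk1 and Ldha are shown because these members were lower at E13.5. Tpi1, also lower there (-0.63), holds neither version in its window. Stretches of Hk2 and Pfkm are shown because these members went in opposite directions between E15.5 telencephalon and P7 whole brain, where age and tissue cannot be told apart. They were picked among members with ACGTG upstream. Pfkp, which also went up in that step, has 4 matches in its window, none of them ACGTG. A further Hk2 stretch, 238 to 210 bases before the start, and a Pfkm stretch, 250 to 228 bases before another start, are left out. ACGTG or its reverse complement CACGT is in capitals. Eno1 windows hold 2 matches each, none of them ACGTG.
Pgk1, chrX:106186938-106186985, plus strand, 162 to 115 bases before the start: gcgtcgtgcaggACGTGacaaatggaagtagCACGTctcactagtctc
Ldha, chr7:46845647-46845786, plus strand, 157 to 18 bases before the start: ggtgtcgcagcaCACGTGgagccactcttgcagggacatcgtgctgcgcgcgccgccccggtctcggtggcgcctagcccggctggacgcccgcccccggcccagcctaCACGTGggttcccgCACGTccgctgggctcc
Pfkm, chr15:98092441-98092470, plus strand, 148 to 119 bases before the start: aattaagtatgcCACGTGaagtaagtaatt
Hk2, chr6:82774490-82774518, minus strand, 64 to 36 bases before the start: aatgagcacatcCACGTcactgtccgggg
The 2 stretches with the palindrome CACGTG, in Ldha and Pfkm, hold both letter orders on top of each other. Ldha, lower at E13.5, and Pfkm, with a difference of 0.11 there, both carry it.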

How the data were processed

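Total RNA was made into TruSeq libraries and sequenced as paired-end reads. Alignment was done by the authors with TopHat2 (mm9) and quantification with Cuffdiff2, both at default settings, after transcript assembly with Cufflinks (version 2.0.2 per the submitters' processing notes). The authors deposited 3 tables (42760, 42760 and 40770 rows) with 1 FPKM value per group, scaled by Cuffdiff2. Their fold changes, test statistics, p-values, q-values and calls of significance were not used. There are 0 columns of values per sample, so no error, test, interval or paired comparison could be computed.

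The groups were those of the labels (21 libraries). Differences of log2(FPKM + 1) were computed within a table, with at least 1 FPKM in either group, and the 5 knockout and 4 age comparisons were counted at 0.5. The counting code was run on wild-type levels with planted shifts past the threshold and no added noise, which checks the code only. Table starts count from 0, and 1 was added. Transcripts of GENCODE were aligned to mm9 with blastn 2.17.0+, and copies were taken at 90% identity over at least 50% of the length. Scripts used python 3.11.15 and pandas 2.3.3.

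The members and lists were chosen with earlier results of these data known. Named genes are all members, pathway genes at or past the threshold in a knockout comparison, isozymes, the 5 genes most like Eno1 and Gm5506, and markers that moved. In the age steps pathway genes outside the members are named only in part, so an unnamed one can be past the threshold. Pdhb, Pkm2, Pfkfb2, Pgam1, Slc2a1, Slc2a3, Slc2a4, Gapdh, Alas2, Slc4a1, Commd10 and Sema6a were named outside this rule in some comparisons, after their values were seen. Alternatives were another pseudocount, other filters, a threshold of 1, centring, and the sum of Eno1 and Gm5506. Protein identity was computed from translated GENCODE coding sequences.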

Additional observations from a re-analysis of the deposited data

Results flagged for a closer look

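Gm5506 was past the threshold in opposite directions in different strains. Its difference was 2.37 in the Peril brain, 3.24 at E13.5 and 2.81 at P7 in linc-Brn1b, and -3.62 in the Fendrr lung. The difference between the strains was not tested, since each group has a single value. The value in the Peril brain follows the labels, although the row that overlaps Peril was higher in the group labelled knockout.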

How the results depend on the processing

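No paired analysis was possible because the tables hold no values per library, and leaving out each replicate was not possible for the same reason. A value counts as moved when it changes by over 0.1 on the log2 scale, and a count when it changes by over 1.5 times. No value past the threshold turned its sign under any alternative run.

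With a pseudocount of 0.1 FPKM the differences of Gm5506 were 2.68 (Peril), -3.79 (lung), 3.57 (E13.5) and 3.28 (P7), and that of Eno1 was 0.71 in the Peril brain. For the sum of Eno1 and Gm5506 in place of Eno1 they were 1.98, -3.03, 2.35 and 2.12. Centring on the median of all genes moved none of the 332 differences, but put Pgam2 at P7 just under the threshold (0.4995) and Pkm2 (-0.52) and Pdhb (-0.54) at E13.5 past it.

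The number of pathway genes past the threshold was 5 in the Peril brain and 1 at E15.5 with a pseudocount of 0.1, and 1 in the Peril brain and 1 at P7 with a minimum of 5 FPKM. With a threshold of 1 it was 1 in the Peril brain, 1 at E13.5 and 1 at P7, and 3 and 11 (wild type) and 3 and 13 (knockout) in the age steps. Pfkfb2 at E13.5 (0.50) and Slc2a4 at P7 (-1.01) came past 0.5 with the pseudocount of 0.1.

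Alternatives chosen after seeing the data used genes at 100 FPKM or more. Counts among these were 0 in the Peril brain, 0 in lung, 3 at E13.5, 0 at P7, and 5 and 7 (wild type) and 0 and 7 (knockout) in the age steps. Centring on their median gave 3 genes past the threshold at E13.5. Of these, Gm5506 (3.43) and the newly passing Pfkfb2 (0.65) were higher in knockout and only Ldha was lower. Eno1 moved to 0.43 there, and Pgk1 (-0.34), Tpi1 (-0.44), Slc2a1 (-0.44) and Slc16a3 (-0.45) were no longer past the threshold. Nor were Pdk4 at P7 (-0.50, just under it) and, in the knockout step from E13.5 to E15.5, Hk1 (0.35), Slc2a3 (0.46) and Pdhb (0.29). Other genes came past it instead, among them Slc2a1 at P7 (0.51).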
